A study of Mus musculus with 36 samples.

Results

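Described here are 7 genes of regulatory T cells and of the chemokine axis that draws them in, out of 21650 genes measured: Foxp3, Il2ra, Ikzf2, Ccr4, Ccr8, Ccl17 and Ccl22. They are a list of named genes, matched to the expression table by Ensembl identifier. Each had 1 row in the table, and since no filter on low values was applied, all 7 entered every test.

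The RNA came from 36 frozen tissues of mice inoculated through the teat canal after a lactation, in 12 groups of 3. 4T1 tumors grew from 4T1 mammary tumor cells in BALB/c mice, and Py230 tumors from Py230 mammary tumor cells in C57BL/6 mice, each sampled at 1, 3 and 6 weeks post-inoculation (w p.i.). Control glands of the same strains and times had received Matrigel, the basement membrane gel in which the tumor cells were suspended, without cells. Each model is thus 1 established cell line in its syngeneic, immunocompetent strain, so cell line and strain cannot be told apart in the tumors, and the control glands are the one place where the strains were compared without tumor cells.

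Regulatory T cells are CD4 T cells that hold other immune cells in check. The transcription factor FOXP3 defines them, the interleukin-2 receptor alpha chain CD25 (Il2ra) lets them take up interleukin-2 at low concentrations, and Helios (Ikzf2), an Ikaros family zinc finger protein, is present in many of them. They carry the chemokine receptors CCR4 and CCR8, and the chemokines CCL17 and CCL22, made mainly by dendritic cells and macrophages, bind CCR4. In mammary tumors these cells are known for restraining T cell responses. Activated conventional T cells also express Il2ra, and Ikzf2, Ccr4 and Ccr8 are used by other lymphocytes too.

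In the GENCODE annotation of the mm10 assembly, Foxp3 (ENSMUSG00000039521) lies at chrX:7573644-7595245 on the plus strand, Il2ra (ENSMUSG00000026770) at chr2:11642807-11693193 on the plus strand and Ikzf2 (ENSMUSG00000025997) at chr1:69531214-69687245 on the minus strand. The receptors share chromosome 9, with Ccr4 (ENSMUSG00000047898) at chr9:114490316-114504916 on the minus strand and Ccr8 (ENSMUSG00000042262) at chr9:120092114-120094906 on the plus strand. The ligands are neighbors on the plus strand of chromosome 8, with Ccl22 (ENSMUSG00000031779) at chr8:94745590-94751699 and Ccl17 (ENSMUSG00000031780) at chr8:94810453-94812036. The 58753 bases between both ligand genes hold Cx3cl1, the gene of the chemokine fractalkine, and Ciapin1, a gene for iron-sulfur cluster assembly, follows Ccl17 after 7767 bases.

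The RefSeq promoter table (GRCm38.p6, the mm10 assembly) held entries for 6 of the 7 genes. Ikzf2 had no entry. The sequences of the ligand genes are shown because these neighbors varied together across the libraries, as described below. The Ccl17 stretch is the 250 bases before its start, chr8:94810203-94810452. The Ccl22 stretch, chr8:94745434-94745589, stops at the GENCODE start, which lies 94 bases before that of RefSeq. Capitals mark matches to TTCNNNGAA, the spacing preferred by STAT5, and TTCNNNNGAA, the spacing preferred by STAT6, the factor that acts downstream of interleukin-4 and interleukin-13. Both motifs read the same on either strand.
Ccl17: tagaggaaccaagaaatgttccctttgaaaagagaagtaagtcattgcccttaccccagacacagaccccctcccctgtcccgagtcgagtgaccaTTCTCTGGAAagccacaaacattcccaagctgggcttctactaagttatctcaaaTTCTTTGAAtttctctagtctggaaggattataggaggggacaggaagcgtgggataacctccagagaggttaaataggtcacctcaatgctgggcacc
Ccl22: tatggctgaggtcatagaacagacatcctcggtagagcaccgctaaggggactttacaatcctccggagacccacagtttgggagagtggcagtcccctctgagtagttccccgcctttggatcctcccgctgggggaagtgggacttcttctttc
The Ccl17 stretch held 1 match to TTCNNNNGAA, starting 154 bases before the start, and 1 to TTCNNNGAA, starting 99 bases before it. Of all 32851 promoters in the table, 5.85% held TTCNNNNGAA in their 250 bases, 7.02% held TTCNNNGAA and 0.469% held both. The 156 bases shown for Ccl22 held neither, and 3.87% and 4.59% of promoters held these motifs in a window of that length and place. A match describes letters in the window and is no evidence of binding.

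The deposited values are scores, not counts. Every library was brought to mean 0 and SD 1 across its genes, so a score says how far a gene stands above or below the average gene of that library on a log-like scale. Across genes, 1 score unit corresponded to 2.86 log2 units of the authors' mean normalized count, which gives a rough guide to size. Levels of different genes are not ranked by score below, because the scale does not account for gene length. Where scores of T cell genes are subtracted from a member, the result is compared only between tumors. The authors' mean normalized counts over their libraries were 164.0 for Foxp3, 146.3 for Il2ra, 264.6 for Ikzf2, 94.5 for Ccl17 and 252.7 for Ccl22, but only 22.4 for Ccr4 and 13.1 for Ccr8, whose scores rest on few reads. Depth per library cannot be read from scores. Libraries of a group correlated at 0.947 or higher over all genes. 4T1 replicate 1 at 3 w p.i. had the highest score of all 36 libraries for 6 of the 7 members. It was also highest for the mean of the T cell genes Cd3d, Cd3e and Cd3g. Calls of members that change without it are given below. For the other genes named, calls without it were not examined, those at 3 w p.i. included. Epithelial markers were high in every library, with list means from 1.26 to 1.93 in the tumors. Skeletal muscle markers varied widely, with list means from -0.66 to 3.10 over all libraries. The labels do not say that the 3 samples of a group came from separate animals, so p-values measure the spread between these samples. In bulk tissue, fewer cells of a type and less RNA per cell cannot be told apart.

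Foxp3 was high in 4T1 tumors early and fell with time, whereas its mean in Py230 tumors rose. The Py230 rise from 1 to 6 w p.i. lost its call without each of the 6 libraries in turn. Its scores were 0.49, 0.16 and 0.49 in the 4T1 tumors at 1 w p.i., 0.59, 0.02 and 0.12 at 3 w p.i., and 0.02, -0.06 and 0.06 at 6 w p.i. In the Py230 tumors they were -0.16, -0.06 and -0.05, then 0.23, 0.06 and -0.05, then 0.15, 0.10 and 0.24. All 3 4T1 tumors lay above all 3 Py230 tumors at 1 w p.i., the models overlapped at 3 w p.i., and all 3 Py230 tumors lay above all 3 4T1 tumors at 6 w p.i. The 18 Matrigel glands ranged from -0.20 to 0.06 with a median of -0.13. 

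Il2ra was also high in 4T1 tumors early and lower late, with no called change in Py230 tumors. The 4T1 tumors scored 0.46, 0.09 and 0.57 at 1 w p.i., 0.66, -0.00 and 0.09 at 3 w p.i., and -0.17, -0.19 and -0.37 at 6 w p.i. The Py230 tumors scored -0.20, -0.08 and -0.08, then 0.01, -0.12 and -0.26, then -0.08, -0.35 and 0.11. The models were separate at 1 w p.i. and overlapped later. The glands ranged from -0.39 to 0.13 with a median of -0.23.

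Ikzf2 showed no called change over time in 4T1 tumors. The 4T1 tumors scored 0.48, 0.26 and 0.42 at 1 w p.i., 0.69, 0.25 and 0.35 at 3 w p.i., and 0.38, 0.51 and 0.36 at 6 w p.i. The Py230 tumors scored 0.21, 0.16 and 0.21, then 0.33, 0.23 and 0.20, then 0.06, -0.02 and 0.21. The models were separate at 1 and at 6 w p.i. but not at 3 w p.i. The glands ranged from 0.13 to 0.41 with a median of 0.26, and the C57BL/6 glands at 6 w p.i., at 0.41, 0.38 and 0.34, all stood above the Py230 tumors of that time.

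Ccr4 and Ccr8 are the chemokine receptors of the set. Ccr4 scored -0.74, -0.92 and -0.53 in 4T1 tumors at 1 w p.i., -0.46, -0.97 and -0.90 at 3 w p.i., and -0.78, -1.18 and -0.40 at 6 w p.i. In Py230 tumors it scored -1.21, -1.04 and -1.24, then -0.86, -1.09 and -1.12, then -0.80, -1.04 and -0.93. Only the tumors at 1 w p.i. did not overlap, and the glands ranged from -1.39 to -0.84 with a median of -1.24. Ccr8 scored -0.85, -1.16 and -0.80 in 4T1 tumors at 1 w p.i., -0.71, -1.57 and -1.36 at 3 w p.i., and -1.42, -1.44 and -1.39 at 6 w p.i. In Py230 tumors it scored -1.67, -1.57 and -1.57, then -0.98, -1.23 and -1.62, then -1.09, -1.25 and -0.99. As for Foxp3, the 4T1 tumors were the higher ones at 1 w p.i. and the lower ones at 6 w p.i., without overlap at either time. The glands ranged from -1.73 to -1.51 with a median of -1.65.

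The ligands varied most between libraries. Ccl17 scored 0.44, -0.49 and 0.31 in 4T1 tumors at 1 w p.i., 0.72, -0.61 and -0.52 at 3 w p.i., and -0.95, -1.17 and -0.73 at 6 w p.i. In Py230 tumors it scored -1.66, -0.99 and -1.16, then -1.01, -0.93 and -1.10, then -1.01, -1.30 and -0.98. The models were separate in weeks 1 and 3 and overlapped at 6 w p.i. Ccl22 scored 0.93, 0.43 and 0.90 in 4T1 tumors at 1 w p.i., 1.03, 0.13 and 0.38 at 3 w p.i., and -0.25, -0.34 and -0.16 at 6 w p.i. In Py230 tumors it scored -0.84, 0.34 and 0.31, then 0.04, -0.01 and -0.17, then -0.14, -0.29 and 0.03. The models were again separate in weeks 1 and 3 and overlapped at 6 w p.i., although Py230 replicate 1 at 1 w p.i. stood far below the other 2. Glands ranged from -1.57 to 0.30 for Ccl17 and from -0.91 to 0.76 for Ccl22. The highest gland for both was replicate 1 of the C57BL/6 glands at 1 w p.i., whose fellow replicates scored -1.43 and -1.43 for Ccl17.

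**Figure D1:**
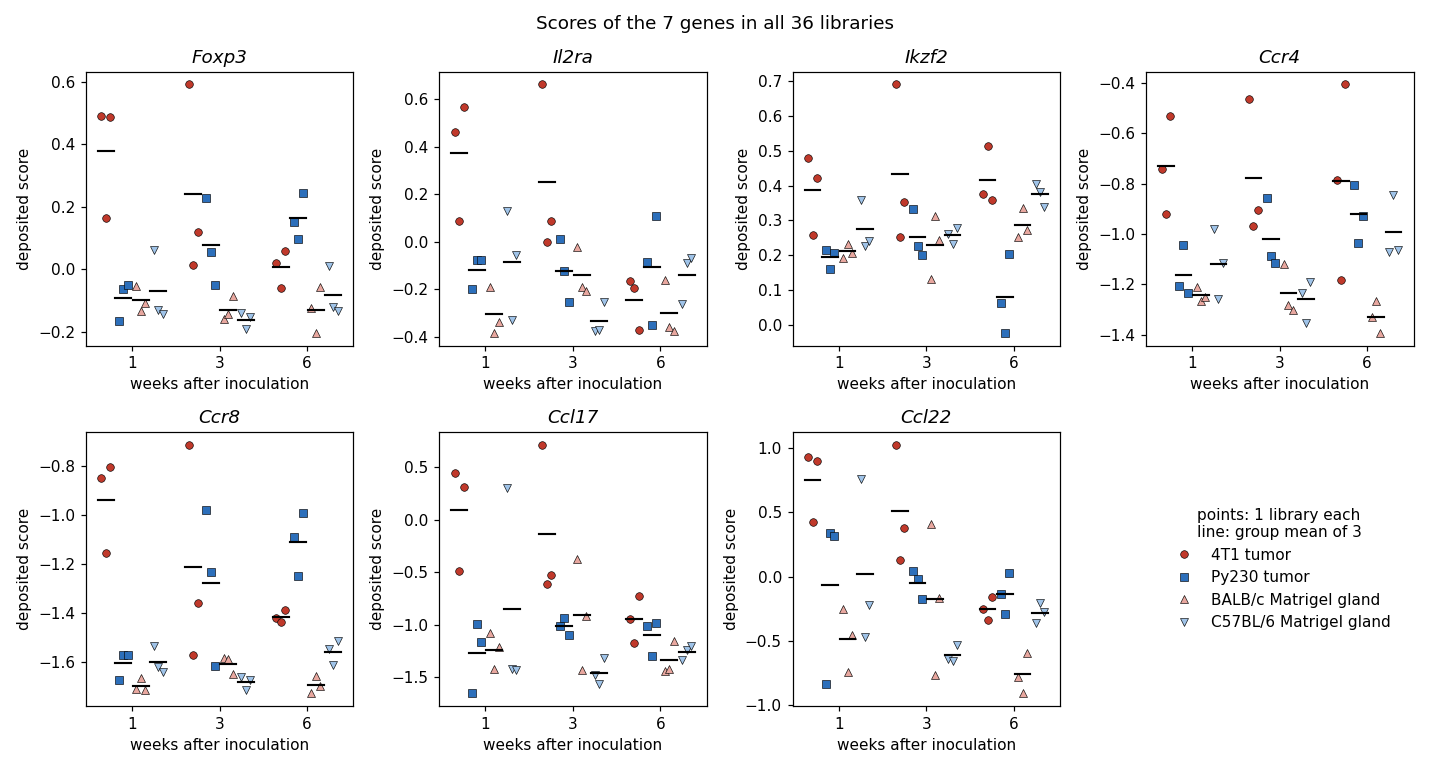
Deposited score (y axis, no unit) of each gene in all 36 libraries against weeks after inoculation (x axis), 1 point per library and a line at the mean of 3. In 6 of the 7 panels the 4T1 tumors at 1 w p.i. have the highest group mean, and 4T1 replicate 1 at 3 w p.i. is the highest point in all panels but Ccr4.

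Across the 12 groups, the 4T1 tumors at 1 w p.i. had the highest mean for 6 of the 7 members. These means were 0.38 ± 0.187 (SD, n = 3) for Foxp3, 0.37 ± 0.253 for Il2ra, -0.73 ± 0.197 for Ccr4, -0.94 ± 0.191 for Ccr8, 0.09 ± 0.506 for Ccl17 and 0.75 ± 0.279 for Ccl22. For Ikzf2 the highest mean was that of the 4T1 tumors at 3 w p.i., at 0.43 ± 0.229, which fell below the 0.42 of the 4T1 tumors at 6 w p.i. without replicate 1 (0.30, the mean of the other 2). The lowest was that of the Py230 tumors at 6 w p.i., at 0.08 ± 0.115. Groups next to each other in the order rarely differed beyond their spread. Of the 11 gaps between neighbors, none exceeded the larger SD of the pair for Foxp3, Il2ra, Ccr4, Ccl17 and Ccl22, 1 did for Ikzf2 and 2 did for Ccr8. One of the latter set the 4T1 tumors at 6 w p.i. above the C57BL/6 glands at 6 w p.i., so that all tumor groups except Py230 at 1 w p.i. stood above every gland group for Ccr8.

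The main question of the study was how both models differ at each stage. At 1 w p.i., 4T1 tumors exceeded Py230 tumors for 6 of the 7 members at an adjusted p (limma, Benjamini-Hochberg over all 21650 genes) under 0.05, against 11% of all genes called higher, 8.43% lower and 19.4% in either direction. Ccl17 differed by 1.36 ± 0.35 (SE; 95% confidence interval 0.65 to 2.07; adjusted p = 0.00837) and Ccl22 by 0.81 ± 0.29 (0.22 to 1.41; adjusted p = 0.0492). Ccr8 differed by 0.67 ± 0.14 (0.38 to 0.95; adjusted p = 0.0018) and Ccr4 by 0.43 ± 0.14 (0.15 to 0.72; adjusted p = 0.0298). Foxp3 differed by 0.47 ± 0.10 (0.27 to 0.68; adjusted p = 0.00217) and Il2ra by 0.49 ± 0.14 (0.20 to 0.78; adjusted p = 0.0173). Ikzf2 differed by 0.19 ± 0.076 (0.04 to 0.35; adjusted p = 0.0737) and was not called. Foxp3 and Ccr8 kept their call when any 1 of the 6 libraries was left out. The other 4 lost theirs without 4T1 replicate 1, without 4T1 replicate 3 or without Py230 replicate 1, which leaves 2 called members, and Ccr4 also without Py230 replicate 3. Without 4T1 replicate 2, which had the lowest score of its group for all 7 members, all 7 were called. The difference of Ccl22 shrank to 0.43 without Py230 replicate 1 (adjusted p = 0.341).

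At 3 w p.i. only Il2ra was called, at 0.37 ± 0.14 (0.08 to 0.66; adjusted p = 0.0469), while 11.9% of all genes were called higher, 18.5% lower and 30.3% in either direction. This call was lost without 4T1 replicate 1 (0.17; adjusted p = 0.369) and without any one of the Py230 tumors. Ccl17 differed by 0.88 ± 0.35 (0.16 to 1.59; adjusted p = 0.0568) and Ccl22 by 0.56 ± 0.29 (-0.04 to 1.15; adjusted p = 0.151). Without 4T1 replicate 1 no member was called, and the differences were 0.45 for Ccl17 (adjusted p = 0.356), 0.30 for Ccl22 (adjusted p = 0.502), -0.01 for Foxp3 and -0.19 for Ccr8. Without 4T1 replicate 2, 4 members were called, and without 4T1 replicate 3, 2 were. By 6 w p.i. the one called member was Ikzf2, higher in 4T1 tumors by 0.33 ± 0.076 (0.18 to 0.49; adjusted p = 0.00079), against 24.1% of all genes called higher, 16.7% lower and 40.8% in either direction. It stayed called without any 1 of the 6 libraries. Foxp3 differed by -0.16 ± 0.10 (-0.36 to 0.05; adjusted p = 0.222) and Ccr8 by -0.31 ± 0.14 (-0.59 to -0.02; adjusted p = 0.0807), and neither was called. When only the 6 tumors of that time were fitted, both were called along with Ikzf2 (adjusted p = 0.0459 for Foxp3 and 0.00859 for Ccr8), and after quantile normalization Ccr8 was called with Ikzf2, at -0.41 (adjusted p = 0.0195). The intervals for the ligands at that time were -0.57 to 0.86 for Ccl17 and -0.71 to 0.48 for Ccl22. A difference of moderate size in either direction was thus not detectable by this fit, whose spread is shared by all 12 groups. For Ccl17 the SD was 0.224 in the 4T1 and 0.174 in the Py230 tumors of that time, and 0.997 in C57BL/6 glands at 1 w p.i. With only the 6 tumors fitted, neither ligand was called (limma, adjusted p = 0.387 for Ccl17 and 0.314 for Ccl22).

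Averaged over the 3 times, 6 members were higher in 4T1 tumors, all but Ccr8 (0.14; adjusted p = 0.156), while 23.8% of all genes were called higher and 44.5% in either direction. Ccl17 differed by 0.79 ± 0.20, Ccl22 by 0.42 ± 0.17, Ccr4 by 0.27 ± 0.08, Il2ra by 0.24 ± 0.082, Ikzf2 by 0.24 ± 0.044 and Foxp3 by 0.16 ± 0.058. Ikzf2, Ccr4 and Ccl17 kept their call without any 1 of the 18 tumors. Foxp3 lost its call without 4T1 replicate 1 or 3 at 1 w p.i., without 4T1 replicate 1 at 3 w p.i., and without Py230 replicate 1 at 1 w p.i., replicate 3 at 3 w p.i. or replicate 2 at 6 w p.i. Ccl22 lost its call for 11 of the 18 libraries, and kept it without 4T1 replicate 2 at 1 w p.i., 4T1 replicates 2 or 3 and Py230 replicate 1 at 3 w p.i., Py230 replicates 2 or 3 at 1 w p.i. and Py230 replicate 3 at 6 w p.i. Without 4T1 replicate 1 at 3 w p.i. only 3 members were called, Foxp3 falling to 0.10 (adjusted p = 0.072), Il2ra to 0.17 (adjusted p = 0.0519) and Ccl22 to 0.33 (adjusted p = 0.117).

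BALB/c and C57BL/6 glands showed no called difference for any member at any of the 3 times, by limma, whereas 3.06%, 3.77% and 3.84% of all genes were called between these strains at the successive times. At an unadjusted p under 0.05, 0 members differed at 1 w p.i., 0 at 3 w p.i. and 1, Ccr4, at 6 w p.i. (-0.34, BALB/c minus C57BL/6; adjusted p = 0.234). The intervals were wide for the ligands, from -1.10 to 0.33 for Ccl17 at 1 w p.i., and narrower for Foxp3, from -0.23 to 0.18 at that time. With the gland difference subtracted from the tumor difference at 1 w p.i., no member was called, all 7 had an unadjusted p under 0.05, as had 17.9% of all genes, and 0.305% of all genes were called. The values were 0.50 for Foxp3 (adjusted p = 0.0787), 0.77 for Ccr8 (adjusted p = 0.0632) and 1.74 for Ccl17 (adjusted p = 0.0787), each larger than the difference between the tumors alone. The C57BL/6 glands of that time ranged from -1.43 to 0.30 for Ccl17 and from -0.14 to 0.06 for Foxp3, with replicate 1 the highest. The other replicates lay below the BALB/c mean for both genes, so for these the excess over the tumor difference rested on replicate 1. Without 4T1 replicate 2, 6 members were called in this comparison, and 2 were without C57BL/6 gland replicate 2. At 3 w p.i. no member was called (0 at an unadjusted p under 0.05), against 9.15% of all genes. For Ikzf2 at 6 w p.i. the value was 0.42 ± 0.11 (0.20 to 0.64; adjusted p = 0.00423), against 14.4% of all genes called higher and 25.5% in either direction, and stayed called without any 1 of the 12 libraries. Without 4T1 replicate 2, 2 members were called there.

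**Figure D2:**
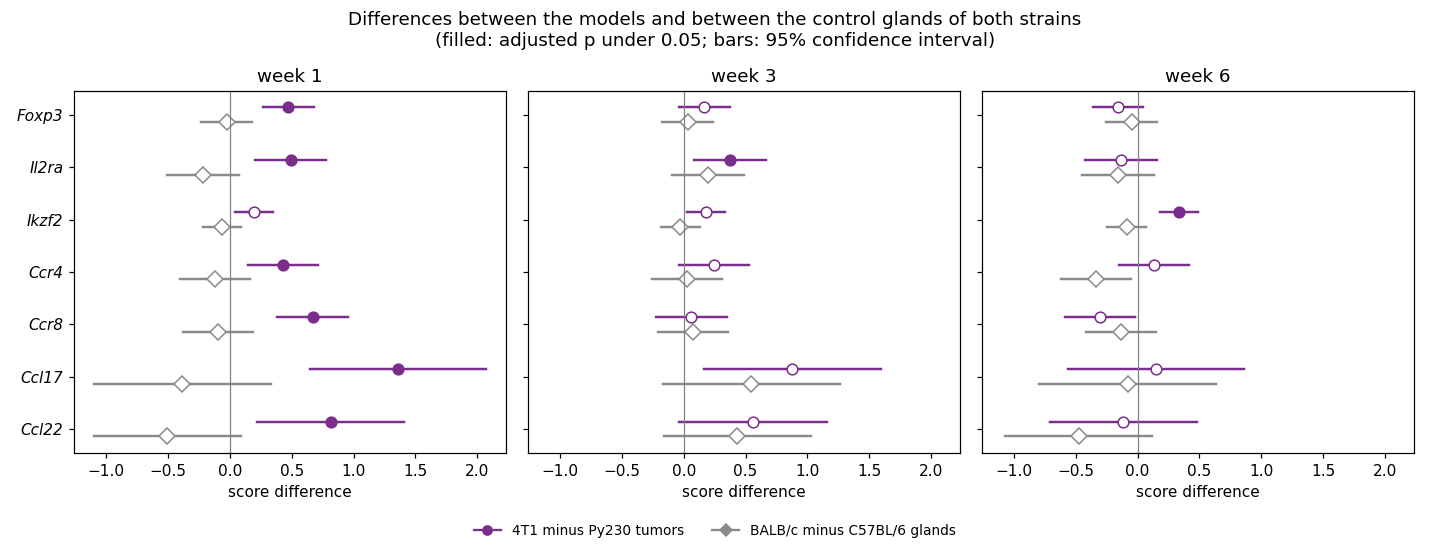
Score difference (x axis) of each gene between 4T1 and Py230 tumors (circles) and between BALB/c and C57BL/6 Matrigel glands (diamonds) at each week, with 95% confidence intervals from limma. Filled symbols mark an adjusted p under 0.05: 6 tumor differences at 1 w p.i., 1 at 3 w p.i. and 1 at 6 w p.i., and no gland difference.

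Tumors were also set against the Matrigel glands of their own strain. The 4T1 tumors at 1 w p.i. were higher than BALB/c glands for 6 members, against 9.91% of all genes called higher and 16.6% in either direction. The differences were 1.33 ± 0.35 for Ccl17, 1.23 ± 0.29 for Ccl22, 0.76 ± 0.14 for Ccr8, 0.68 ± 0.14 for Il2ra, 0.51 ± 0.14 for Ccr4 and 0.48 ± 0.10 for Foxp3, with adjusted p from 0.00441 for Ccr8 to 0.0165 for Ccr4. These calls depended on single libraries. Without 4T1 replicate 3, 0 members stayed called. Without 4T1 replicate 1, Foxp3, Il2ra and Ccr8 stayed called, and without BALB/c gland replicate 2 only Ccr8 did. Without 4T1 replicate 3 the difference was 0.42 for Foxp3 and 1.22 for Ccl17. At 3 w p.i. only Foxp3 was called, at 0.37 ± 0.10 (adjusted p = 0.0426), against 2.1% of all genes called higher and 3.25% in either direction, while all 7 members and 21.2% of all genes had an unadjusted p under 0.05. The Foxp3 call was lost without 4T1 replicate 1, at 0.20 (adjusted p = 0.504), when the 7 members ranged from 0.07 for Ikzf2 to 0.43 for Ccl22, and without any one of the BALB/c glands, while 5 members were called without 4T1 replicate 2 and 2 without 4T1 replicate 3. At 6 w p.i. Ccr4 was the one called member, at 0.54 ± 0.14 (adjusted p = 0.00161), against 38.6% of all genes called higher and 60.1% in either direction. It stayed called without any 1 of the 6 libraries, at 0.35 without 4T1 replicate 3 (adjusted p = 0.0281).

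In the Py230 tumors no member differed from C57BL/6 glands at 1 w p.i., with 0 at an unadjusted p under 0.05 and only 2 of all genes called (0.00924%). At 3 w p.i. Ccr8 was higher by 0.41 ± 0.14 (adjusted p = 0.038), against 12.8% of all genes called higher and 19.7% in either direction. This call was kept only without Py230 replicate 3, being lost for the other 5 of the 6 libraries, with 0.26 (adjusted p = 0.373) without Py230 replicate 1, and 2 members were called without Py230 replicate 3. By 6 w p.i. Ccr8 was higher by 0.45 ± 0.14 (adjusted p = 0.00922) and Foxp3 by 0.25 ± 0.10 (adjusted p = 0.0449), against 28.8% of all genes called higher, and Ikzf2 was lower, at -0.29 ± 0.076 (adjusted p = 0.00247), against 18.7% called lower. The share in either direction was 47.6%. The calls of Ccr8 and Ikzf2 held without any 1 of the 6 libraries. That of Foxp3 was lost without Py230 replicate 1 or 3 and without C57BL/6 gland replicate 2 or 3, with 0.21 (adjusted p = 0.144) without Py230 replicate 3. The ligands Ccl17 and Ccl22 differed from the glands by 0.16 and 0.15 at this time (adjusted p = 0.733 and 0.707).

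**Figure D3:**
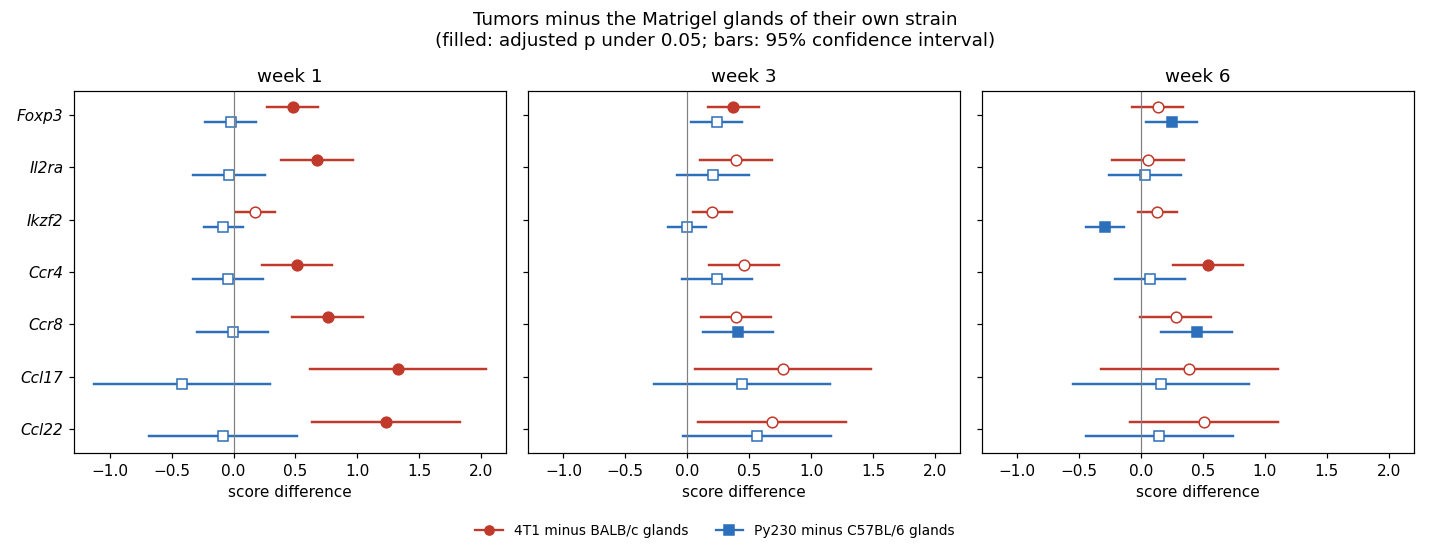
Score difference (x axis) between tumors and the Matrigel glands of their strain at each week, 4T1 minus BALB/c (circles) and Py230 minus C57BL/6 (squares), with 95% confidence intervals from limma. Filled symbols mark an adjusted p under 0.05: 6 for 4T1 at 1 w p.i. and 0 for Py230, while at 6 w p.i. Ccr4 is the one filled circle and Foxp3, Ikzf2 and Ccr8 are the filled squares.

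Over time within the 4T1 tumors, 5 members fell from 1 to 6 w p.i., against 17.5% of all genes called lower, 31.3% higher and 48.8% in either direction. Ccl17 fell by 1.04 ± 0.35 (adjusted p = 0.0154), Ccl22 by 1.00 ± 0.29 (adjusted p = 0.00592), Il2ra by 0.62 ± 0.14 (adjusted p = 0.000809), Ccr8 by 0.48 ± 0.14 (adjusted p = 0.00577) and Foxp3 by 0.37 ± 0.10 (adjusted p = 0.0032). Ikzf2 and Ccr4 gave 0.03 and -0.06 (adjusted p = 0.765 and 0.744). The Ccl17 call was lost without 4T1 replicate 1 or 3 at 1 w p.i. and without replicate 2 at 6 w p.i. (-0.93; adjusted p = 0.0612), and the other calls held without any 1 of the 6 libraries. From 1 to 3 w p.i. no member was called, with 0 at an unadjusted p under 0.05, against 0.628% of all genes, though Foxp3 and Ccr8 were called without 4T1 replicate 1 at 3 w p.i., at -0.31 (adjusted p = 0.0158) and -0.53 (adjusted p = 0.00505). From 3 to 6 w p.i. Il2ra fell by 0.49, Ccl22 by 0.76 and Foxp3 by 0.24, against 18.8% of all genes called lower and 53% in either direction. Without 4T1 replicate 1 at 3 w p.i. none of these held, with -0.29 for Il2ra, -0.50 for Ccl22 and -0.06 for Foxp3. Only Il2ra was called without replicate 1 or 2 at 6 w p.i. and Foxp3 alone was lost without replicate 3 at 6 w p.i. The count was 5 without replicate 2 and 4 without replicate 3 at 3 w p.i.

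In the Py230 tumors 2 members rose from 1 to 6 w p.i., against 24.3% of all genes called higher, 14.7% lower and 39% in either direction. Ccr8 rose by 0.50 ± 0.14 (adjusted p = 0.00608) and kept its call without any 1 of the 6 libraries. Foxp3 rose by 0.26 ± 0.10 (adjusted p = 0.0428) and lost its call without each of the 6 libraries in turn, at 0.22 to 0.29. From 1 to 3 w p.i. no member was called and 1, Ccr8, had an unadjusted p under 0.05 (0.33; adjusted p = 0.0917), against 20% of all genes. Without Py230 replicate 3 at 3 w p.i., 1 member was called. From 3 to 6 w p.i. no member was called and 1, Ikzf2, had an unadjusted p under 0.05 (-0.17; adjusted p = 0.189), against 6.03% of all genes. In the glands of both strains no member was called between any 2 times by limma. The share of all genes called there was 0.0139%, 0.0831% and 0% in BALB/c glands and 0.129%, 0.194% and 0.217% in C57BL/6 glands, from 1 to 3, 1 to 6 and 3 to 6 w p.i., and 1 member had an unadjusted p under 0.05, in C57BL/6 glands between 1 and 3 w p.i.

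Whether the difference between the models changed with time was tested directly. Between 1 and 6 w p.i. the 4T1 minus Py230 difference dropped by 0.97 ± 0.20 for Ccr8 (adjusted p = 0.000473), by 0.63 ± 0.14 for Foxp3 (adjusted p = 0.00143) and by 0.63 ± 0.20 for Il2ra (adjusted p = 0.021), against 12.4% of all genes called lower and 27.4% in either direction. For Foxp3 and Ccr8 the call held without any 1 of the 12 libraries. For Il2ra it was lost without 4T1 replicate 1 (-0.58; adjusted p = 0.0511) or replicate 3 at 1 w p.i., without 4T1 replicate 3 at 6 w p.i. and without Py230 replicate 3 at 6 w p.i. Ccl17 gave -1.21 ± 0.49 (-2.22 to -0.20; adjusted p = 0.068) and Ccl22 -0.93 ± 0.41 (-1.77 to -0.09; adjusted p = 0.0942), and neither was called. Between 1 and 3 w p.i. the change was called for Ccr8 alone, at -0.61 ± 0.20 (adjusted p = 0.036), against 10.4% of all genes called lower and 15.3% in either direction. That call was lost for 9 of the 12 libraries left out, all but 4T1 replicate 2 at 1 w p.i., 4T1 replicate 1 at 3 w p.i. and Py230 replicate 3 at 3 w p.i., and reached -0.46 (adjusted p = 0.168) without Py230 replicate 1 at 3 w p.i. Without 4T1 replicate 1 at 3 w p.i. it was -0.86 for Ccr8 (adjusted p = 0.000518), and Foxp3 was called too, at -0.48 (adjusted p = 0.0035). Between 3 and 6 w p.i. no member was called, 2 had an unadjusted p under 0.05, and 26.7% of all genes were called. There 3 members were called without 4T1 replicate 2 at 3 w p.i., and 1 each without 4T1 replicate 1 or 3 at 3 w p.i. or without Py230 replicate 2 at 6 w p.i.

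T cell genes moved with these members. Of 11 T cell markers, 4T1 tumors had 7 at a higher level than Py230 tumors at 1 w p.i. (median difference 0.55; Cd2, an adhesion receptor of T cells, at 0.62 and Cd3e, a chain of the T cell receptor complex, at 0.65), 1 at 3 w p.i. (Cd3g, at 0.44), and 0 at 6 w p.i., when Cd4, the coreceptor of helper and regulatory T cells, was lower (-0.40). Of all genes, 11%, 11.9% and 24.1% were called higher in 4T1 tumors at the successive times, and 8.43%, 18.5% and 16.7% lower. Over all genes the median difference between the models was 0.01, -0.01 and 0.04 at these times, and the median change from 1 to 6 w p.i. was 0.05 in 4T1 and 0.04 in Py230 tumors. The mean score of the marker list lay between -0.18 and 0.13 in the 4T1 tumors at 1 w p.i. and between -0.64 and -0.39 in the Py230 tumors. By 6 w p.i. both models overlapped, at -0.34 to -0.32 and -0.40 to -0.04. To set the members against T cell RNA in the same tumor, the mean of Cd3d, Cd3e and Cd3g, the chains of the CD3 complex, was subtracted from each score, and the models were compared within weeks by an exact two-sided permutation test over 8000 regroupings, whose smallest p is 0.00025.

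Ccl17 was higher in 4T1 tumors relative to CD3, by 0.50 over the 3 times (exact permutation p = 0.0015, adjusted over the 7 members 0.0105), and at 0.45 to 0.56 without any 1 of the 18 tumors. At the successive times the difference was 0.75, 0.51 and 0.24 (exact permutation p = 0.1, 0.2 and 0.2), and the models overlapped at 3 and 6 w p.i. CD3 does not measure the dendritic cells and macrophages that mainly make CCL17, and their markers were not subtracted. Ccr8 was lower relative to CD3, by -0.15 (exact permutation p = 0.009, adjusted 0.0315), an average of 0.06 at 1 w p.i., when the models overlapped, with -0.31 and -0.22 later. Its values in Py230 tumors were -0.87, -0.85 and -0.87 at 3 w p.i. and -0.96, -0.79 and -0.91 at 6 w p.i., all above the -1.21, -1.07 and -1.23 and the -1.08, -1.14 and -1.09 of the 4T1 tumors. The adjusted p of Ccr8 rose to between 0.0508 and 0.0648 without 4T1 replicate 2 at 6 w p.i., without Py230 replicate 1 at 1 w p.i., without any one of the Py230 tumors at 3 w p.i. or without Py230 replicate 2 at 6 w p.i., and with 7 other T cell genes as the reference the difference was -0.12 (adjusted p = 0.135). Foxp3 gave -0.14 (exact permutation p = 0.0378, adjusted 0.0881). Its mean relative to CD3 was 0.57, 0.49 and 0.39 in Py230 tumors at the successive times, and 0.43, 0.28 and 0.32 in 4T1 tumors. These changes over time were not tested. At 1 w p.i. its 4T1 values of 0.44, 0.43 and 0.42 all lay below the Py230 values of 0.63, 0.52 and 0.55, the reverse of the order before subtraction. The exact p of 0.1 for that time is the smallest that 3 against 3 can give. Without 4T1 replicate 2 at 3 w p.i. the Foxp3 difference was -0.18 (adjusted p = 0.0257). Foxp3 varied less than CD3, with ranges of 0.65 against 1.00 in 4T1 and 0.41 against 0.71 in Py230 tumors. Subtraction alone thus lowers the value of a tumor with high CD3. The lowest tumor value of Foxp3, 0.09, was that of 4T1 replicate 1 at 3 w p.i., which had the highest CD3 mean. Whether regulatory T cells were a smaller share of T cells was not tested.

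The remaining members showed no called difference relative to CD3 over the 3 times. Il2ra gave -0.05, Ikzf2 -0.06, Ccr4 -0.03 and Ccl22 0.12, with exact permutation p from 0.346 to 0.8. For Ikzf2 this average joined opposite signs, -0.41 at 1 w p.i. and 0.42 at 6 w p.i., each without overlap between the models (exact p = 0.1, the smallest possible). At 1 w p.i. Ikzf2 itself averaged 0.39 in 4T1 and 0.19 in Py230 tumors, and CD3 -0.05 and -0.66. The negative sign thus came from CD3. Nor did Ikzf2 follow CD3 in the glands, with a median of 0.26 at a CD3 median of -0.67, against 0.21 and -0.46 in Py230 tumors.

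**Figure D4:**
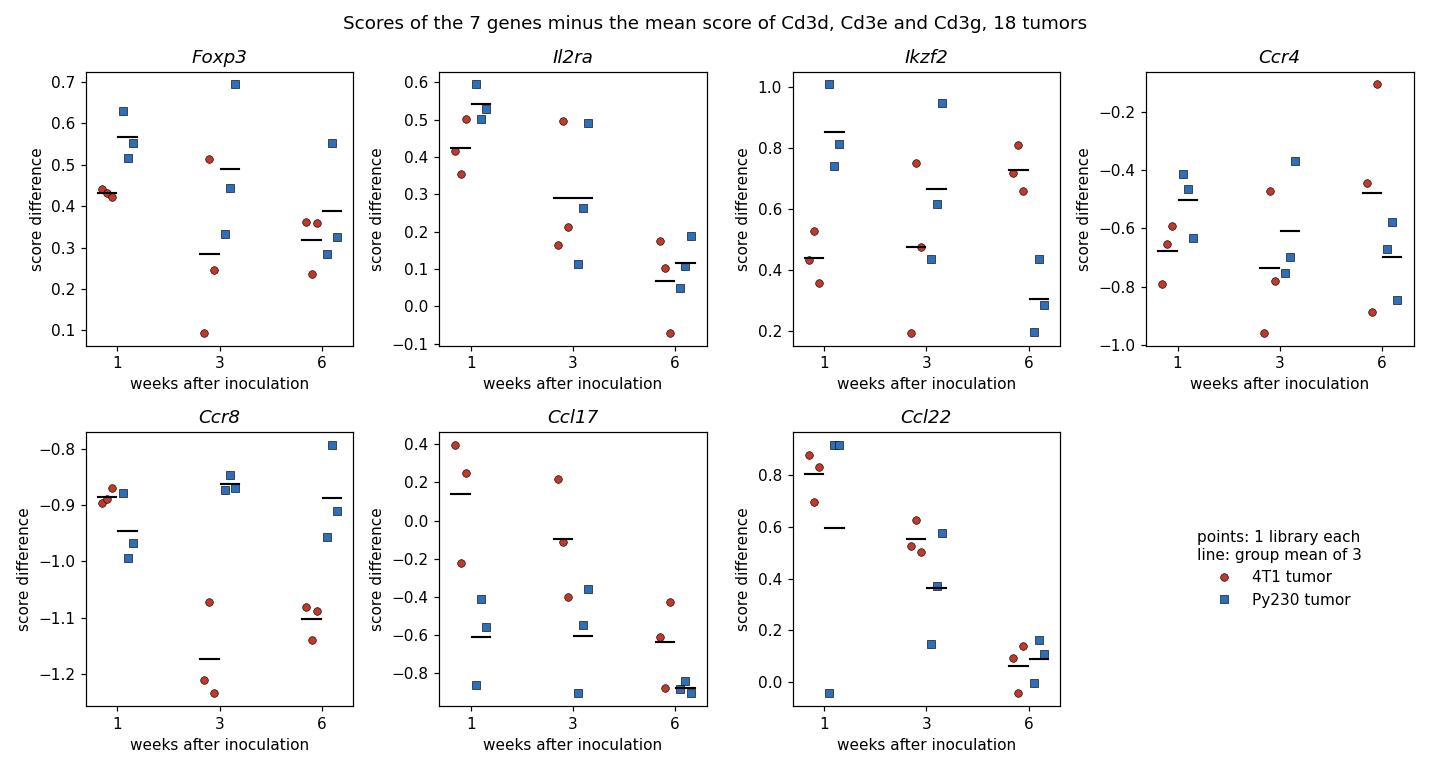
Score of each gene minus the mean score of Cd3d, Cd3e and Cd3g in the same tumor (y axis) against weeks after inoculation (x axis), 1 point per tumor and a line at the mean of 3. Ccl17 is higher in 4T1 by 0.50 on average over the weeks (0.75, 0.51 and 0.24 in weeks 1, 3 and 6, with overlap in weeks 3 and 6). The 4T1 points for Foxp3 at 1 w p.i. and for Ccr8 in weeks 3 and 6 lie below all Py230 points.

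The counts of the gene lists that follow stand beside shares of all genes called higher and lower in 4T1 tumors of 11% and 8.43% at 1 w p.i., 11.9% and 18.5% at 3 w p.i., and 24.1% and 16.7% at 6 w p.i. Calls of list genes were not examined with single libraries left out. Among 22 further genes tied to regulatory T cells, 13 were higher in 4T1 tumors at 1 w p.i. and none lower (median difference 0.32). They included Klrg1, an inhibitory receptor of differentiated lymphocytes, at 0.71 and Gpr83, a receptor found on regulatory T cells, at 0.37. At 3 w p.i. 7 were higher and 0 lower, led by Il1rl1, the receptor of interleukin-33, at 0.88. At the last time 5 were higher and 3 lower, near the 24.1% and 16.7% of all genes, with Nt5e (CD73, which makes adenosine) higher by 1.39 and Tnfrsf18 (GITR) and Izumo1r (folate receptor 4) lower, at -0.54 and -0.71. Within 4T1 tumors 15 of the 22 fell and 3 rose from 1 to 6 w p.i. (median -0.36), against 17.5% and 31.3% of all genes, while in Py230 tumors 7 rose and 4 fell (median 0.13), against 24.3% and 14.7%. Many of these genes are also used by other T cells. Cd5 is on the T cell list too, and Ikzf4 on that of the Ikaros family.

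Around Il2ra, 4 of 13 genes of interleukin-2 receptor signaling were higher in 4T1 tumors at 1 w p.i. and none lower, among them Il2rb, the beta chain, at 0.58 and the kinase Jak3 at 0.22. The counts were 4 higher and 2 lower at 3 w p.i. and 3 higher and 2 lower at 6 w p.i., the last again near the shares over all genes. At that last time Jak3 differed by 0.60, Cish, a feedback inhibitor that STAT5 induces, by 0.56, and Socs2, another inhibitor, by -0.43. Il2 itself, at an authors' mean normalized count of 9.97, differed by 0.03 at 1 w p.i. (adjusted p = 0.678). Of the 4 other Ikaros family genes measured, 3 were higher in 4T1 tumors at 1 w p.i. and 1 at each later time. From 1 to 6 w p.i. 3 of these 4 fell in 4T1 tumors, with Ikzf4 (Eos) at -0.55 and Ikzf3 (Aiolos) at -0.55, a period in which Ikzf2 gave 0.03.

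Around the receptors, 5 of 10 other CC chemokine receptors were higher in 4T1 tumors at 1 w p.i. and none lower, with Ccr2 at 0.70 and Ccr1 at 0.88, both carried by monocytes. The counts were 3 higher and 0 lower at 3 w p.i. and 1 higher and 1 lower at 6 w p.i. Of 16 other CC chemokines measured, 6 were higher and 1 lower at 1 w p.i., 6 and 3 at 3 w p.i., and 3 and 1 at 6 w p.i. Ccl8, which binds CCR8 in mice, was higher by 1.16 at 1 w p.i. and by 1.25 at 3 w p.i., and differed by -0.20 at 6 w p.i. (adjusted p = 0.571). Ccl1, the other ligand of CCR8, was higher by 0.52 at 1 w p.i. (adjusted p = 0.0166), at an authors' mean normalized count of 10.0. Ccl27a, a chemokine of skin epithelium, was lower at all 3 times, at -0.75, -0.62 and -0.78, and BALB/c glands were lower than C57BL/6 glands too, at -0.54, -0.55 and -0.55. With the glands subtracted Ccl27a was not called at any time.

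Signals known to induce the ligands were higher in 4T1 tumors for 3 of 9 measured genes at 1 w p.i., 8 of 9 at 3 w p.i. and 3 of 9 at 6 w p.i., with none lower. Csf2rb, the shared receptor chain for GM-CSF, was higher by 0.59 at 1 w p.i. and by 0.64 at 3 w p.i., and Irf4, a factor needed for dendritic cell maturation, by 0.61 at 3 w p.i. At the last time Tslp, an epithelial cytokine, was higher by 2.25 and Stat6 by 0.15, at a time when neither ligand was called. From 1 to 6 w p.i. in 4T1 tumors Irf4 fell by 1.17. Of the genes beside the ligands, Cx3cl1 was lower in 4T1 tumors in weeks 3 and 6, at -0.49 and -0.35, and rose within 4T1 tumors from 1 to 6 w p.i. by 0.32. Ciapin1 was higher at 1 w p.i. by 0.26 and at 6 w p.i. by 0.21, but BALB/c glands also exceeded C57BL/6 glands, by 0.33 and 0.26 at these times. With the glands subtracted neither gene was called at any time, Ciapin1 giving -0.06 in week 1 and -0.05 in week 6 (adjusted p = 0.663 and 0.627).

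Markers of cells that make the ligands also moved. Of 7 conventional dendritic cell markers, 4 were higher in 4T1 tumors at 1 w p.i. and 4 at 3 w p.i., and 0 were higher and 2 lower at 6 w p.i. All 7 fell within 4T1 tumors from 1 to 6 w p.i. (median -0.66), led by Cd209a, a lectin of dendritic cells, at -1.71. The mean score of that list was between 0.39 and 0.68 in 4T1 tumors at 1 w p.i. and between -0.28 and -0.11 at 6 w p.i. Of 8 measured markers of mature dendritic cells, 0 differed at 1 w p.i., 2 were higher and 1 lower at 3 w p.i., and 1 was higher at 6 w p.i. Of 8 macrophage markers, 1 was higher at 1 w p.i., 8 at 3 w p.i. and 0 at 6 w p.i. The part of these cells in the ligand values was not tested.

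Other cell types were checked by their markers as well. Among 9 measured B cell and lymph node markers, 0 differed between the models at 1 w p.i., 3 were higher and 1 lower in 4T1 tumors at 3 w p.i., and 0 differed at 6 w p.i., with list means from -1.36 to -0.91 over all 36 libraries. Natural killer cell markers were higher for 2 of 4 in weeks 1 and 3, and 1 was higher and 1 lower at 6 w p.i. Neutrophil markers were higher for 2, 3 and 5 of 5 at the successive times. Of 5 adipocyte markers 1 was lower at 1 w p.i. and 0 differed later, and all 5 fell from 1 to 6 w p.i. in both models. Skeletal muscle markers gave 0 of 4 at every time. Keratinocyte and skin markers gave 0 of 6 in weeks 1 and 3 and 1 lower at 6 w p.i. Their list means varied widely between libraries at 6 w p.i., from -0.61 to 1.53 in BALB/c and -0.60 to 0.88 in C57BL/6 glands. In the tumors of that time they ran from -1.12 to 0.40 for 4T1 and from -0.50 to -0.42 for Py230. Of 5 mammary epithelial markers 2 were lower at 3 and at 6 w p.i. but 0 at 1 w p.i. The part of these differences in the values of the members was not tested.

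The members also followed one another across libraries. Over the 36 libraries, which share groups, the correlation of scores was 0.94 between Foxp3 and Ccr8, 0.91 between Ccl17 and Ccl22 and 0.83 between Foxp3 and Il2ra, and with the group means taken out it was 0.88, 0.90 and 0.76. Ikzf2 was the least alike, at 0.46 with Foxp3 and 0.35 with Ccl22. Among 19066 genes with an authors' mean normalized count of at least 10, those most like Foxp3 were Icos (0.94), Ctla4 (0.93) and Tnfrsf4 (0.92), which encode costimulatory or inhibitory receptors of T cells. Those most like Ccr8 were Icos (0.93), Ctla4 (0.93) and the adaptor gene Grb2 (0.93), and those most like Ccr4 were Tigit (0.87), Rasgrp1 (0.87) and Serpina3g (0.86). Il2ra was closest to Tbc1d10c, Map4k1 and Itgb7 (0.91 to 0.92). Ikzf2 was closest to Cd274, the gene of PD-L1, Irf2 and A930007I19Rik, each at 0.79. Ccl22 was closest to Ccr7 (0.90), the receptor that guides dendritic cells and T cells to lymph nodes, Myo1g (0.90) and Gpr132 (0.90). Ccl17 was closest to F7 (0.89), Matk (0.89) and F10 (0.89), of which F7 and F10 encode coagulation factors. These correlations describe likeness over libraries that share groups and are given without a p. They were not recomputed with single libraries left out, with or without the group means. Outlying libraries enter them, such as 4T1 replicate 1 at 3 w p.i., the highest of all libraries for every member but Ccr4. Replicate 1 of the C57BL/6 glands at 1 w p.i., the highest gland for both ligands, enters them too.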

How the data were processed

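RNA from 36 libraries (18 tumors, 18 Matrigel glands) was sequenced by the authors from stranded libraries, aligned with STAR to mm10 and counted per gene. Tool versions are not given in the sources used here. The deposited expression values are scores: in every library they have mean 0 and SD 1 over 21650 genes, a step that the methods do not describe. The test of the study, DESeq2, needs counts and was not run. Library depth is unknown, and no interval for counting error is given. The deposited comparison tables hold the authors' fold changes and p-values between the models at each time, which were not used. From these the gene symbols and the authors' mean normalized count (other unit, counts divided by size factors) were taken. Of the 21650 genes, 16266 were named from that table and 5384 from GENCODE.

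Scores were fitted with limma 3.58.1 (R 4.3.3; moderated, with trend and robust settings), 1 mean per group over all 36 libraries, with Benjamini-Hochberg adjustment over all genes and a threshold of 0.05. The labels give no source for the replicate numbers. Deviations of same-numbered libraries correlated over 0.1 in all 3 pairs only between BALB/c and C57BL/6 glands at 1 w p.i. (0.41, 0.79 and 0.56). The labels do not say that the numbers pair samples, and the main fit treated all libraries as unpaired. Values relative to CD3 were compared with exact permutation tests (numpy 2.4.6, Python 3.11.15), adjusted over the 7 members. The fit was tested on simulated differences. From each list the genes named are at most 2 in each direction with the smallest p in that comparison, plus Cx3cl1, Ciapin1, Ccl1, Ccl8 and Il2. The most similar genes are the 3 with the highest correlation. The members and lists were chosen with earlier results of these data known. Lists covered regulatory T cell genes, interleukin-2 signaling, the Ikaros family, CC receptors, CC chemokines, ligand-inducing signals and markers of T cells, conventional and mature dendritic cells, macrophages, B cells, natural killer cells, neutrophils, skin, adipocytes, muscle and epithelium. Ccl20, Csf2, Il4i1 and Cr2 were listed but have no row in the table used here. Alternatives were a robust rescaling, quantile normalization, a filter on the authors' mean normalized count of at least 10, plain empirical Bayes, fits on only the groups compared, a replicate block, subtraction of the Matrigel values, another T cell reference and leaving out each library.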

Additional observations from a re-analysis of the deposited data

Results flagged for a closer look

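The difference between the models changed with time for 3 members by a test of that change itself (limma, adjusted over all genes). From 1 to 6 w p.i. the 4T1 minus Py230 difference of Ccr8 moved by -0.97, that of Foxp3 by -0.63 and that of Il2ra by -0.63. Of all genes 12.4% were called lower and 27.4% in either direction. From 1 to 3 w p.i. that of Ccr8 moved by -0.61, as the 1 called member of 7. Of all genes 10.4% were called lower and 15.3% in either direction, so this count was near the share over all genes. With the values of the Matrigel glands subtracted within each strain, Ikzf2 was higher in 4T1 tumors by 0.42 at 6 w p.i., which tests whether tumor minus gland differs between the models. This count of 1 member of 7 was again near the share over all genes, with 14.4% called higher and 25.5% in either direction. For Ccr8 and Foxp3 from 1 to 6 w p.i. and for Ikzf2, the call held without any 1 of the 12 libraries, while those of Il2ra and of Ccr8 from 1 to 3 w p.i. depended on single libraries. Outlying samples were not tested for within groups of 3.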

How the results depend on the processing

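No called value of a member reversed. Of 2961 alternative values over 217 member comparisons, 121 had the other sign, all of values not called. Counts of members called moved as follows. Fitting only the groups compared gave 3 for 4T1 minus Py230 at 1 w p.i., 0 at 3 w p.i. and 3 at 6 w p.i., 0 for the change from 1 to 3 w p.i., 0, 0 and 4 for 4T1 minus BALB/c glands at the successive times, 0 for Py230 minus C57BL/6 glands at 3 w p.i., 1 between the strains' glands at 6 w p.i. and 1 for 4T1 from 3 to 6 w p.i. Quantile normalization gave 2 for 4T1 minus Py230 at 6 w p.i., 1 for 4T1 from 3 to 6 w p.i. and 1 for Py230 from 1 to 6 w p.i. Robust rescaling gave 0 for the change from 1 to 3 w p.i., 2 for 4T1 minus BALB/c glands at 6 w p.i., 2 with glands subtracted at 6 w p.i. and 1 for Py230 from 1 to 6 w p.i. Subtracting the Matrigel values gave 0 at 1 w p.i. and 0 at 3 w p.i. With other T cell genes as reference Ccr8 gave -0.12. The shares of all genes given above belong to the main fit, not to these fits or to those with 1 library left out. A change in these counts is thus not set against the change over all genes. The causes were not tested. The fits on only the groups compared used fewer libraries and took the spread from those groups alone. The filter on the mean count and plain empirical Bayes moved no count by over 1.5 times.

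Outside the glands of both strains at 1 w p.i., same-numbered libraries did not all deviate together (10 of all 36 pairs correlated over 0.1, from -0.47 to 0.79). The labels name no pairing for any group. A replicate block gave 2 called members for 4T1 minus Py230 at 3 w p.i., 1 for the change from 3 to 6 w p.i. and 2 for 4T1 minus BALB/c glands at 3 w p.i. Between the glands at 1 w p.i. it called 0 members, as without it.

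Leaving out 1 library, the count ranged from 2 to 7 for 4T1 minus Py230 at 1 w p.i., 0 to 4 at 3 w p.i. and 3 to 7 for the mean of the times, 0 to 2, 2 to 4 and 0 to 3 for the changes from 1 to 3, 1 to 6 and 3 to 6 w p.i., 0 to 7 and 0 to 5 for 4T1 minus BALB/c glands in weeks 1 and 3, 0 to 2 and 2 to 3 for Py230 minus C57BL/6 glands in weeks 3 and 6, and 0 to 6 and 1 to 2 with glands subtracted in weeks 1 and 6. Within 4T1 it ranged from 0 to 2, 4 to 5 and 0 to 5 from 1 to 3, 1 to 6 and 3 to 6 w p.i., and within Py230 from 0 to 1 from 1 to 3 w p.i. and at 1 from 1 to 6 w p.i. Relative to CD3, Foxp3 ranged from -0.18 to -0.10 and Ccr8 from -0.17 to -0.14. Without counts, depth is unknown, and the few reads behind Ccr4 and Ccr8 limit their precision.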
